A study of Mus musculus with 8 samples.

Results

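Binding of HoxB4 at 9 genes of B lymphocyte development was read from promoter arrays of blood progenitors. The genes, Blnk, Dntt, Pax5, Ebf1, Rag1, Rag2, Cd79a, Cd79b and Vpreb1, were chosen by name for their known roles in the B lineage. The choice was made with earlier results of these data known, so counts among them are a description and not a test. A probe was taken for a gene where the array annotation named that gene. These genes are 9 of 16496 for which a signal over 3 neighbouring probes could be computed. They were covered by 307 distinct probes, 7 of which named both Rag1 and Rag2.

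The cells were c-Kit+CD41+ blood precursors made from mouse embryonic stem (ES) cells of the line B6N-22UTR, taken from embryoid bodies after 6 days, given a retrovirus for HoxB4 with a 3×FLAG tag and plated on OP9 stromal cells from bone marrow. Per the series design text, c-Kit+ progenitors overexpressing HoxB4 were collected at day 12 of coculture. DNA precipitated with the Flag tag (Flag-IP, Cy5) was set on the same array against input DNA of the cells (Cy3), both after T7 RNA polymerase-based amplification. There were 2 arrays with different probes, 4 of the genes on array 1 and 5 on array 2, so each gene had 1 measurement with no replicate and no test between samples was possible. HoxB4 came from a retrovirus in all these cells, and Flag-IP from cells without the tag was not analysed here. Expression of the 9 genes in these cells was also not analysed here, because no table used here pairs the expression probe sets with genes.

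B lymphocytes arise from blood stem cells through lymphoid progenitors in which the transcription factors Tcf3, Ebf1 and Pax5 act in sequence. Rag1 and Rag2 cut the antigen receptor genes, Dntt adds nucleotides at the cut ends, and Vpreb1 stands in for a light chain in the pre-B cell receptor. Cd79a and Cd79b carry the receptor's signal to kinases, and Blnk is the adaptor that links those kinases to downstream enzymes. HoxB4 is a homeodomain protein that drives growth of blood stem cells in culture, and homeodomains commonly contact DNA with a TAAT core.

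The 250 bases before the annotated start are shown for 3 genes that the results contrast: Rag2, which had the highest mean signal around its start, Pax5, whose signal lay before the start, and Dntt, whose signal lay inside the gene and not at the start. Sequences are from RefSeq on GRCm38.p6, 5′ to 3′, at chr2:101624462-101624711 on the plus strand for Rag2, chr4:44710695-44710944 on the minus strand for Pax5 and chr19:41029025-41029274 on the plus strand for Dntt. Capitals mark TAAT on either strand.
Rag2: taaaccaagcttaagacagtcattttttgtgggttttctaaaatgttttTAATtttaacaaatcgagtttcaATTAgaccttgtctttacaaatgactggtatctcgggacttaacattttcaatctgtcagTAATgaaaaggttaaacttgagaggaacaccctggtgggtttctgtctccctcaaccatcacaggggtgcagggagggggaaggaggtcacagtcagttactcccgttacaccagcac
Pax5: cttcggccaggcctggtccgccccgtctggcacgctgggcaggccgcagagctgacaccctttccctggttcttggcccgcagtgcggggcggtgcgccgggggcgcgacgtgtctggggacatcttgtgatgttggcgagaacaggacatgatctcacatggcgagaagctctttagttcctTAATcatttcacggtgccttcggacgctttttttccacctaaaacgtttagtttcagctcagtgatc
Dntt: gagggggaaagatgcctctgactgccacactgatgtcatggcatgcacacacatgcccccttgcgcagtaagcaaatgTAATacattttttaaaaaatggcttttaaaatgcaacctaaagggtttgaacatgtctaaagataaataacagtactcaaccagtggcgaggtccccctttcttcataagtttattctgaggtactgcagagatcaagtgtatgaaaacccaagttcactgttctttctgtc
The Rag2 stretch holds 3 such cores, and those of Pax5 and Dntt hold 1 each. Whether the number of cores goes with the signal was not tested. The sources used here give no genome build for the array coordinates, and it was not GRCm38: of 8 genes with a RefSeq stretch, 0 had an array start within 1000 bp of the GRCm38 start. Distances below are therefore from the gene start in the array annotation, negative upstream, and array positions are given in the arrays' own coordinates.

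The measure was the log2 ratio of Flag-IP over input signal, centred on each array's median, so that 0 is the middle of the array and 1 a doubling. A window is the median of 3 neighbouring probes, and a gene's highest window is the summary used for comparison with all genes. Of the 9 B lymphoid genes, 2 had a highest window of at least 2, Blnk and Dntt, where 3.12% of all genes did. At least 1 was reached by 6 of 9, where 43.8% of all genes reached it. Genes with more windows have more chances of a high one: among genes with 30 or more windows, 53.1% reached 1 and 3.89% reached 2, against 6 and 2 of the 6 B lymphoid genes tiled that densely. The median highest window was 1.27 over the 9 genes and 0.92 over all genes.

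**Figure D1:**
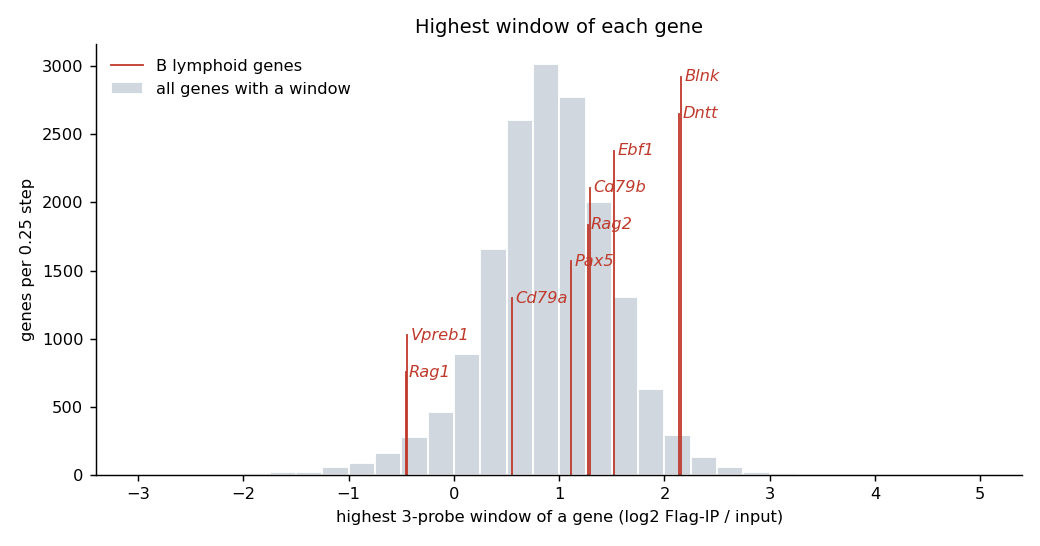
Highest 3-probe window of each gene, as the log2 ratio of Flag-IP over input (x axis), with red lines for the 9 B lymphoid genes and grey bars for the number of all 16496 genes per step of 0.25 (y axis). Line heights carry no value. Blnk at 2.16 and Dntt at 2.14 lie in the upper tail, and Vpreb1 and Rag1, with 2 and 5 windows, lie below 0.

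Blnk, the adaptor of the B cell receptor, had its highest window well upstream of the gene. The window at chr19:41051536-41052038, centred 3876 bp upstream, had a log2 ratio of 2.16, a value above that of 98.2% of genes, and the overlapping window one probe further upstream had the same value. Its probe 4166 bp upstream had 12382 Flag-IP and 1275 input signal units, a log2 ratio of 3.21 ± 0.37, where the error is the scanner software's for that probe and not a spread between replicates. This was the highest ratio among all probes of the 9 genes. The probe 3876 bp upstream had 4770 Flag-IP and 1018 input units (2.16 ± 0.29), and the one 3719 bp upstream had 532 and 225 units (1.18 ± 0.30). The probes on either side, 4443 and 3509 bp upstream, were at 0.32 and -0.21, so the signal was narrow, and 2 of its 3 probes stood at or above 2. Around the Blnk start the mean was 0.38 ± 0.46 (SD over 7 probes within 500 bp), near the median of 0.32 over all genes.

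Dntt, the terminal transferase of V(D)J joining, had a broader signal inside the gene. From 1608 to 2382 bp past the start, 6 neighbouring probes were all at or above 1, with log2 ratios of 1.28, 2.50, 1.52, 2.14, 2.71 and 2.00. The strongest of them had 5457 Flag-IP and 794 input units (2.71 ± 0.33). The run ended at the last probe tiled for Dntt, so its full extent was not measured. Dntt was the 1 gene of the 9 with a run of at least 6 such probes, which 2.92% of all genes had. Its highest window, at chr19:41084390-41084704 and centred 1957 bp inside, was 2.14, above that of 98.0% of genes.

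Outside the run, the probes 837 and 999 bp inside were at 1.50 and 1.06, and most of the upstream probes were near or below 0. Over the 12 probes from 500 to 3000 bp inside the gene the mean was 1.25 ± 1.00 (SD), against -0.10 for the mean over all genes in that span, and 99.4% of genes were lower. From 4000 to 2000 bp upstream the mean over 9 probes was -0.34 ± 0.62. Within 500 bp of the start, where the single TAAT core of the printed stretch would lie if both annotations place the start alike, it was 0.16 ± 0.24 over 4 probes. The printed Dntt sequence therefore does not cover the run.

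**Figure D2:**
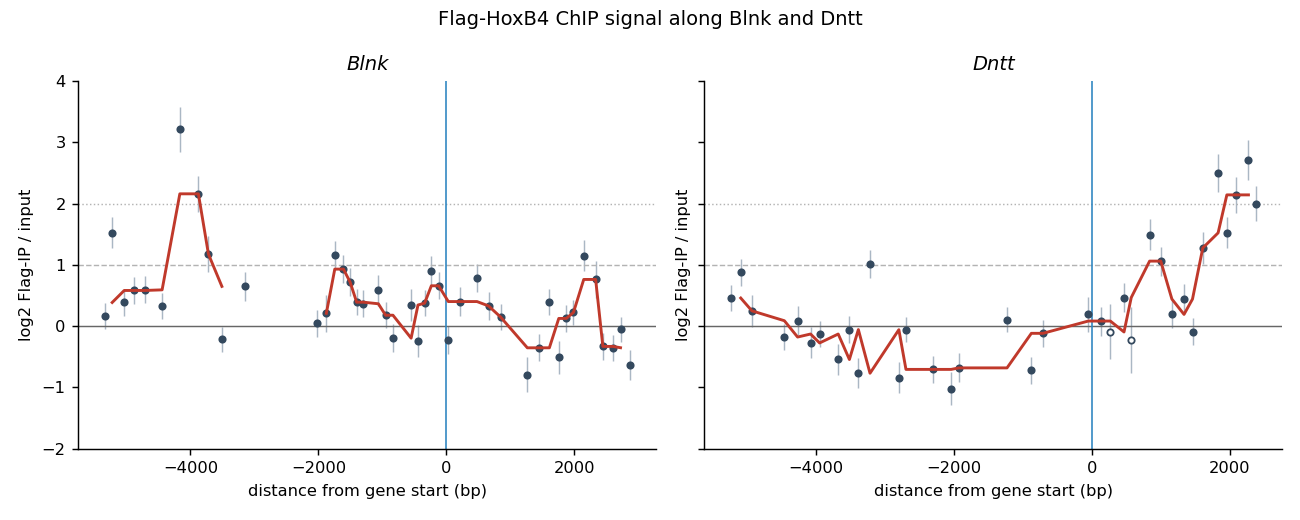
Log2 ratio of Flag-IP over input (y axis) by distance from the gene start in bp (x axis, blue line at 0) for Blnk and Dntt. Points are probes with the scanner software's error, open points were not well above background, and red lines are 3-probe medians. The Blnk signal is 3 probes near 3876 bp upstream, whereas that of Dntt is a run of 6 probes that reaches the last one tiled.

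Blnk and Dntt are neighbours on chromosome 19 and are transcribed away from each other. In the arrays' coordinates their starts lie 34.7 kb apart and their highest windows 32.4 kb apart. RefSeq lists 0 protein-coding genes between them and 2 other genes. The 2 highest of the 9 genes thus lie in one locus, and whether their signals depend on each other was not tested.

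Rag2, which forms the recombinase with Rag1, had its highest window at the start itself with the main processing. With 5-probe windows the highest one lay 4009 bp inside (1.15), and with the trend of the ratio with brightness removed it lay 2637 bp upstream (0.94). The main window at chr2:101425553-101425896, centred 165 bp inside, was 1.27, above that of 74.2% of genes. Its probe at 11 bp upstream had 4701 Flag-IP and 1868 input units (1.27 ± 0.24), the one at 281 bp inside had 6431 and 1870 units (1.72 ± 0.26), and the probe between them was at 0.19 ± 0.22. The signal around the start was therefore uneven from probe to probe. The mean within 500 bp was 0.84 ± 0.56 (SD, 7 probes), the highest of the 8 genes measured there and above that of 82.5% of genes. Of the 7 B lymphoid genes with a window within 500 bp of the start, Rag2 was the 1 whose highest window lay there, where 35.3% of all genes with such a window had it there.

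Rag2 had a pair of further stretches above 0. Between 4000 and 2000 bp upstream 11 probes averaged 0.64 ± 0.45, against -0.35 over all genes, with 94.7% of genes lower. From 4009 to 4339 bp inside, 3 probes had log2 ratios of 1.20, 1.64 and 1.15, and the brightest had 11009 Flag-IP and 3386 input units. All 62 probes of Rag2 also name Iftap, a neighbouring gene, so these probes cannot assign a signal to either gene.

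Rag1 itself was not measured at its promoter. Its 7 probes lie from 15160 to 16925 bp past its start, all of them also name Rag2 and Iftap, and their log2 ratios ran from -1.38 to -0.17. Its highest window of -0.46 is thus a value of the region downstream of both recombinase genes.

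Ebf1, which opens the B cell programme, had contrasting values on its promoter. The window at chr11:44460095-44460671, centred 1142 bp upstream, was 1.53, above that of 86.2% of genes. It was 1.08 with normexp background correction and 1.00 with the brightness trend removed, above 53.5% and 63.9% of genes under those settings. The probes of the main window, at 1437, 1142 and 908 bp upstream, had log2 ratios of 1.17, 1.53 and 1.75, the middle one from 4680 Flag-IP and 1550 input units. Nearer the start the order turned round: the probe 205 bp upstream had 608 Flag-IP and 1885 input units (-1.70 ± 0.26). The probe 29 bp inside was also low at -1.60 ± 0.68, but was not well above background. Ebf1 had the lowest mean within 500 bp of the start, -0.52 ± 1.05 (SD, 5 probes, 1 of them not well above background), and 10.4% of genes were lower.

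Pax5, the factor that commits cells to the B lineage, had Flag-IP over input before its start and the reverse inside the gene. Within 1500 bp, the 8 upstream probes averaged 0.75 ± 1.01 with 7 above 0, and the 10 inside probes averaged -0.54 ± 0.43 with 1 above 0. The inside minus upstream difference was -1.29, a value under which 1.07% of 12760 genes lay, and the median over those genes was 0.12. With normexp background correction the difference was -0.47. The highest window, at chr4:44732174-44732507 and centred 780 bp upstream, was 1.12, above that of 64.4% of genes. Its middle probe read 2.04 ± 0.77 from 197 Flag-IP and 46 input units and was not well above background, while the probe 945 bp upstream read 1.12 ± 0.23 from 2845 and 1259 units.

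The printed Pax5 stretch would fall between the probe at 351 bp upstream (0.73 ± 0.23) and the probe at 243 bp inside (0.57 ± 0.22). No probe lay within it, again if both annotations place the start alike.

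Cd79b, a signalling chain of the B cell receptor, had the opposite arrangement to Pax5. The 9 probes inside the first 1500 bp averaged 0.68 ± 0.66 with 8 above 0, and the 4 upstream averaged -0.93 ± 0.41 with 0 above 0. The difference of 1.61 was above that of 99.1% of genes, and it was 0.81 once the trend of the ratio with brightness was removed. The probe 859 bp inside had 4083 Flag-IP and 1182 input units (1.72 ± 0.26), and the probe 212 bp upstream had 510 and 840 units (-0.79 ± 0.24). The highest window, at chr11:106129618-106129923 and centred 994 bp inside, was 1.29, above that of 75.5% of genes. The 20 probes upstream of Cd79b also name Scn4a, and 18 probes from 7523 to 12760 bp past the start, beyond the gene, also name Gh.

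Cd79a, its partner chain, had no window of at least 1. The highest, at chr7:24608078-24608743 and centred 2301 bp inside, was 0.55, and 25.1% of genes were lower. With the brightness trend removed the highest window was 0.99, centred 76 bp inside, above that of 63.1% of genes in that setting. The 23 probes were sparse, and a pair of probes at 3641 and 3880 bp inside, with log2 ratios of 1.45 and 0.99, had too few neighbours to form a window. Around the start the mean was 0.14 ± 0.57 (SD, 5 probes, the one at 449 bp inside not well above background). The 11 probes upstream of Cd79a also name Rps19, and most of them Arhgef1 too, so they cannot assign a signal to 1 gene.

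Vpreb1, the surrogate light chain, was covered by 6 probes, and 1 of them lay inside the gene, at 197 bp past the start with 3912 Flag-IP and 2529 input units (0.56 ± 0.21). The other 5 lie past the gene and also name Top3b, and the lowest had a log2 ratio of -0.68. The highest of them, 3732 bp past the start, had 2060 Flag-IP and 916 input units. The promoter upstream of Vpreb1 was not tiled, and a close copy of the gene, Vpreb2, could share signal with the inside probe.

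**Figure D3:**
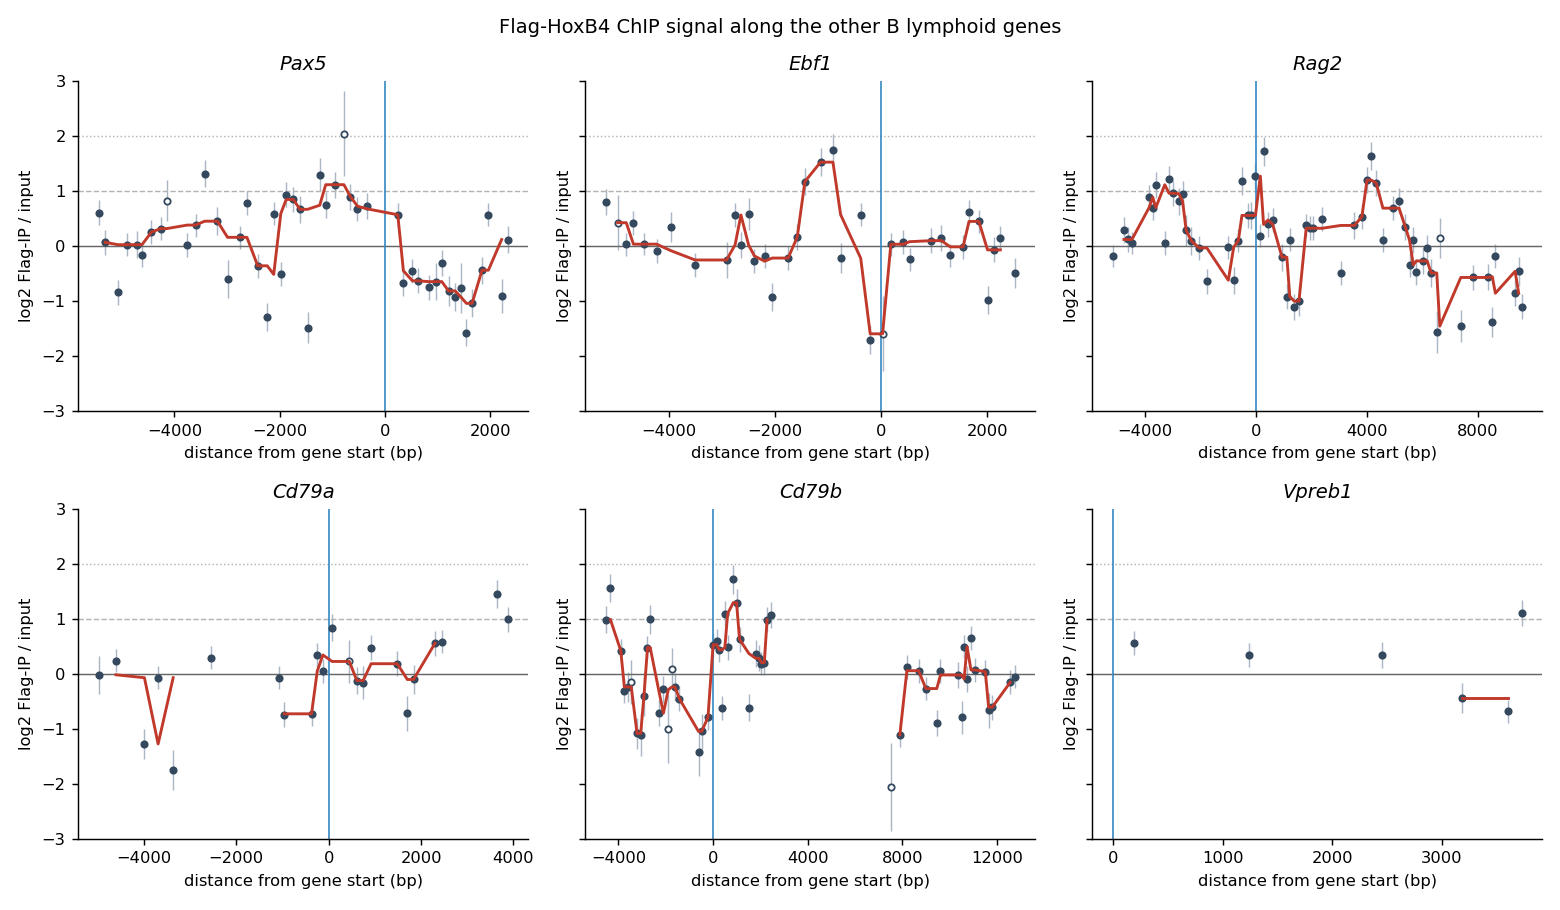
Log2 ratio of Flag-IP over input (y axis) by distance from the gene start in bp (x axis, blue line at 0) for Pax5, Ebf1, Rag2, Cd79a, Cd79b and Vpreb1. Points are probes with the scanner software's error, open points were not well above background, and red lines are 3-probe medians. Pax5 turns negative past its start and Cd79b turns positive, while Rag2 is positive at the start and again near 4167 bp. Rag1 is not drawn because its 7 probes are shared with Rag2 and lie far from its start.

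A lowest window of -1 or less was found in 5 of 9 B lymphoid genes, where 56.5% of all genes had one. With the brightness trend removed, 5-probe windows or normexp it was found in 0 of them. The shares over all genes in these settings were 30.5%, 39.0% and 7.57%, in that order. With 5-probe windows, 8 of the 9 genes had a window. Rag2 had -1.46 at 6632 bp inside, Cd79a -1.28 at 3690 bp upstream and Cd79b -1.11 at 7895 bp past its start. All of these lie at probes that also name other genes. With probes naming 1 gene, 2 of the 6 genes with a window had one of -1 or less, where 48.9% of all genes did. Ebf1 had -1.60 centred 205 bp upstream, a value that rests on the probe not well above background: among probes well above background its lowest window was -0.27, and 4 of the 9 genes had one of -1 or less, where 51.2% of all genes did. Blnk had its lowest window at -0.35 and none of its 43 probes at -1 or less.

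Around the gene start the median of the 8 means within 500 bp was 0.18, against 0.32 over 15875 genes. With probes naming 1 gene the order turned, with 0.38 for the B lymphoid genes measured there and 0.33 for all genes. By position, no span was the highest for all of them: the highest mean was Cd79b from 6000 to 4000 bp upstream (1.27, 2 probes that also name Scn4a), Blnk from 4000 to 2000 bp upstream (0.76), Ebf1 from 2000 to 500 bp upstream (0.70), Rag2 around the start and Dntt past it.

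**Figure D4:**
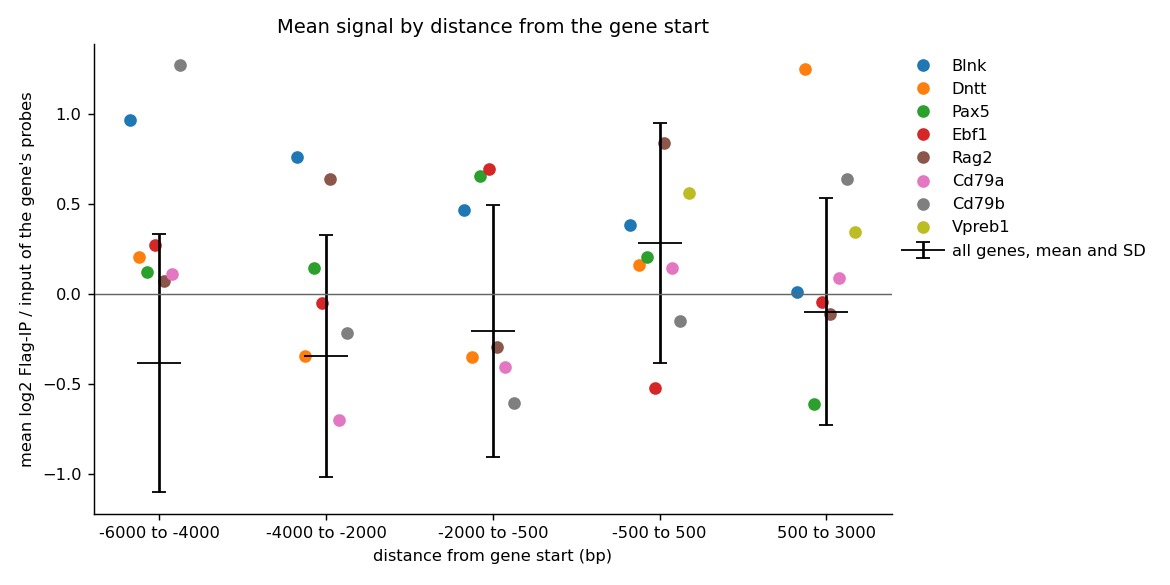
Mean log2 ratio of Flag-IP over input of a gene's probes (y axis) in 5 spans of distance from the gene start in bp (x axis), with a coloured point for each B lymphoid gene with probes there and a black bar for the mean and SD over all genes. Dntt is the highest of them past the start at 1.25, Cd79b and Blnk are the highest from 6000 to 4000 bp upstream at 1.27 and 0.97, while around the start the points lie from -0.52 to 0.84.

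The B lineage genes beyond these 9 were described with 4 further lists, none of which holds a member. Among 16 B lymphoid transcription factors, 10 had a highest window of at least 1, 0 reached 2, and the median was 1.15. Over all genes the shares were 43.8% and 3.12%, the background given for each of the 4 lists, which takes no account of tiling density. The median number of windows per gene was 38 in this list and 27 over all genes. Among genes with 30 or more windows, 53.1% reached 1. In the receptor signalling, V(D)J and surface receptor lists described next, the median number of windows was 26.5, 18.5 and 26. Tcf3, the E protein at the head of the B programme, had 1.81 centred 268 bp upstream, and Bach2, a repressor active in B cells, had 1.59 centred 863 bp upstream. The lowest were Pou2f2 at 0.30 and Ikzf3 at -0.06, the last from 1 window. Spi1, a factor shared by myeloid and B cells, had 1.46, but in a window 16755 bp past its start.

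The receptor signalling list had the highest median of the 4. Of 14 measured genes, 10 reached 1 and 1 reached 2, with a median of 1.30. Among the 10 was Cd22 at 1.52, in a window 21181 bp past its start. Grb2, an adaptor that acts beside Blnk, had a window of 2.00 centred 4326 bp upstream, and Pik3cd, a lipid kinase subunit, had 1.65. Bank1, a B cell scaffold, was at 0.51, and the kinase Blk was lowest at -0.14. Kinases that act on either side of Blnk lay between them, with 1.45 for Syk, 1.25 for Btk and 1.09 for Lyn.

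In the list of V(D)J recombination and end joining, 5 of 10 genes reached 1, near the 43.8% of all genes, and 1 reached 2, with a median of 0.98. Dclre1c, the Artemis nuclease that opens the hairpin ends made by the recombinase, had 2.15 centred 182 bp inside, and Xrcc5, the Ku80 subunit, had 1.70 centred 11 bp upstream. The lowest were the polymerase Poll at 0.47 and Hmgb1, which aids the recombinase, at 0.44. This list had the highest median around the start, 0.66, against 0.32 over all genes. The surface and cytokine receptor list was lower, with 3 of 11 genes at 1 or more, 0 at 2 and a median of 0.75. Its highest were the tetraspanin Cd37 at 1.70 and Cd72 at 1.49, and its lowest were Il7r, the receptor for interleukin-7, at 0.45 and Ms4a1, which encodes CD20, at 0.08.

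Motifs were counted in the RefSeq stretches from 250 bases before to 50 after the start, on both strands and also where they overlapped another motif. There were 9 such stretches for 8 of the B lymphoid genes, 2 of them for Ebf1, and Cd79b was not matched. TAAT was in 7 of the 9 stretches and in 58.0% of 32851 promoters. TGATNNAT, a composite of Hox proteins with Pbx partners, was in 1, that of Rag1 at 33 bases before the start, and in 8.85% of promoters. CANNTG, the E-box read by Tcf3, was in 8 stretches and in 72.3% of promoters. A match describes letters in these windows and is no sign of binding.

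The settings of the processing moved some of these values. With normexp background correction the Dntt run had 5 probes at or above 1, as the probe 1608 bp inside was at 0.65. It kept 6 with the brightness trend removed, where the lowest of them was at 1.01. The other settings compared could not shorten it. Its probes name Dntt alone, were well above background and lie close together, and the deposited ratios are almost the same numbers. With the trend of the ratio with brightness removed, 0.673% of all genes had such a run. In that setting Dntt and Blnk had highest windows of 1.74 and 1.75, above those of 97.0% and 97.1% of genes. Medians over 5 probes left Dntt at 2.14 and Blnk at 1.18, as the Blnk signal spans 3 probes in the main setting. With normexp the dimmest of these 3, at 3719 bp upstream, was at 0.13. The other 2, at 4166 and 3876 bp upstream, were at 3.03 and 2.11. Rag2 was at 1.97 with normexp, and Rag2 and Pax5 were both at 0.94, below 1, once the brightness trend was removed.

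**Figure D5:**
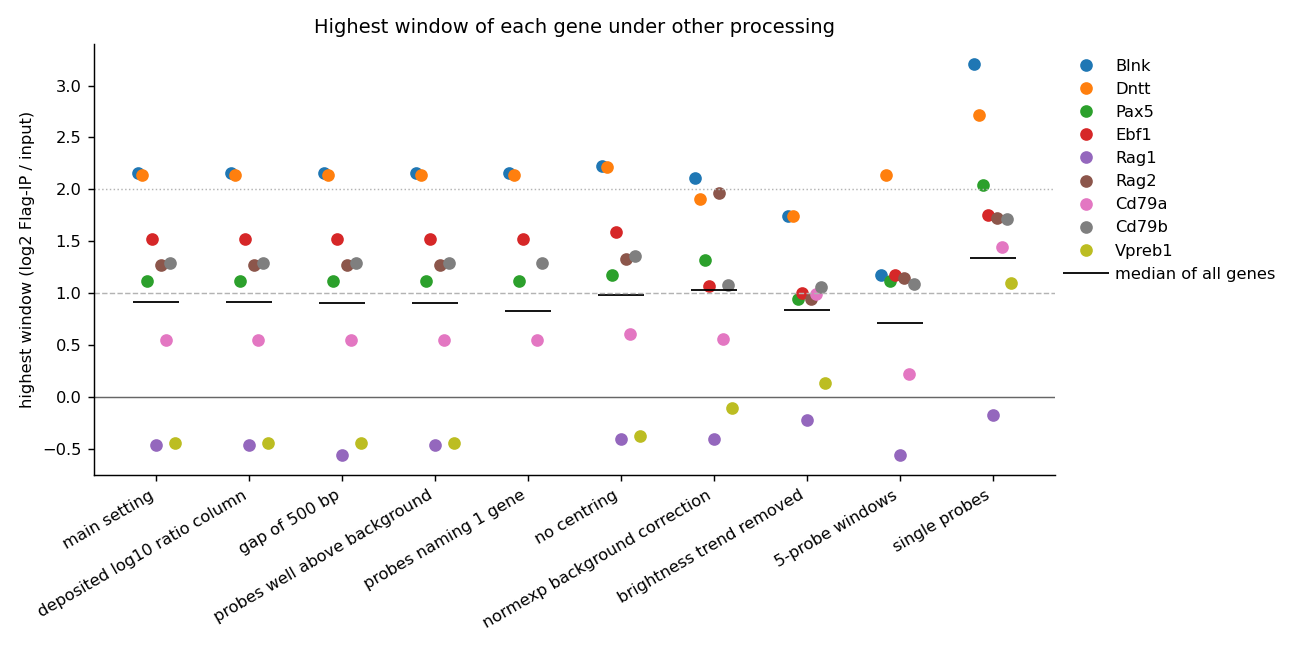
Highest window of each B lymphoid gene (coloured points, log2 ratio of Flag-IP over input, y axis) under the main setting and 9 alternatives (x axis), with a black bar for the median of all genes. Under every setting with windows of 3 or more probes, Dntt lies between 1.74 and 2.21, while Blnk drops to 1.18 with 5-probe windows.

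The 2 arrays were alike in quality. They held 237195 and 237185 probes, of which 236853 and 236732 were used, and 95.3% were well above background in both channels on each. The SD of the log2 ratio over probes was 0.913 and 0.890, and ratios of neighbouring probes correlated at 0.596 and 0.581 across probes, which are not independent replicates. With 1 array for a gene, the number of arrays limits the precision.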

How the data were processed

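Binding was measured on 2 Agilent promoter arrays with different probes, so each promoter had 1 array and no replicate. Per the file headers, the deposited intensities came from Agilent Feature Extraction 10.1.1.1 after background subtraction, spatial detrending and scaling of the dyes by a linear factor. The authors' deposited log10 ratio column and value tables were alternatives. Deposited mean and background intensities served normexp background correction in limma 3.58.1 (offset 50). The brightness trend was a lowess fit (span 0.3) to the log2 ratio of the deposited processed intensities. Both were run in R 4.3.3. The log2 ratio of Flag-IP to input was taken in Python 3.11.15, without loess or quantile steps, leaving out control spots, 19 and 38 probes with outlier marks and 323 and 415 with no position, and centred on each array's median (0.06 and 0.07). Windows were medians of 3 probes with starts at most 1000 bp apart that all named the gene (425939 over both arrays). The software's error is its own model, in log2 units here. The window step was tested on simulated data.

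Gene names of the files were updated through RefSeq of GRCm38.p6, used for names, neighbours and promoter sequences. Of 16726 genes with probes, 124 names were not matched and stayed as in the files. The members and lists were chosen with earlier results of these data known. All 9 members are named, and of the other lists each gene with a window of at least 2 and the 2 highest and 2 lowest. Spi1, Syk, Btk, Lyn, Cd22, Lck, Cd3g and Cd4 fall outside that rule and were named after their values were seen. Percentiles are shares of genes with a lower or equal value. The comparison of both sides of the start, of runs and of low windows under other settings was added after seeing the data. Expression arrays were not used here.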

Additional observations from a re-analysis of the deposited data

How the results depend on the processing

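The count of B lymphoid genes with a highest window of at least 2 was 2, where 3.12% of all genes reached 2. It became 1 with 5-probe windows, where Blnk dropped below 2, and 1 with normexp background correction, where Dntt did. With the brightness trend removed it was 0. Over all genes 1.09%, 4.76% and 1.17% reached 2 in these settings, in that order. The B lymphoid count was 2 or more in the other settings, and was 3 with single probes, where 14.2% of all genes reached 2. At least 1 was reached by 4 to 8 of the 9 genes, the fewest with the brightness trend removed and the most with single probes, where 36.2% and 70.9% of all genes reached it. The median highest window lay between 0.99 and 1.72, and the median around the start between 0.16 and 0.38, over all settings. Over all genes these medians lay between 0.72 and 1.34 and between 0.19 and 0.48. Shifts were judged against the SD among a window's probes, since there was no replicate. Of 117 further values, for single genes and low windows, 103 kept their level and 14 moved. They include a count of genes and a run length, which have no such SD. The deposited ratios gave almost the same numbers as the main setting, and leaving out the centring shifts each array by 0.06 or 0.07. Values kept in those settings therefore say little about stability. Of the 117 values, 2 changed sign: Vpreb1, at -0.44, was at 0.14 with the brightness trend removed and above 0 with single probes. Ebf1 moved in 3 settings, to 1.00 with the trend removed, 1.08 with normexp and 1.17 with 5-probe windows. Probes naming 1 gene left 6 of the 9 genes with a window, without Rag1, Rag2 and Vpreb1. No paired analysis was possible because each promoter was on 1 array. The cause of these shifts was not tested. Probes not well above background bear on the values of Pax5 and Ebf1 given above, and with 1 array the spread between cultures is unknown.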

Other observations

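Genes of the T lineage were read in the same way. Of 13 measured T lymphoid genes, 9 had a highest window of at least 1 and 0 reached 2, where 43.8% and 3.12% of all genes did. Among the 9, the windows of Lck (1.32), Cd3g (1.21) and Cd4 (1.04) lay 15255, 14609 and 23488 bp past the start. The median over the 13 genes was 1.04, against 0.92 over all genes. The highest were Gata3, a factor of T cell development, at 1.85 in a window 5136 bp upstream, and the adaptor Lat at 1.45. The lowest were Ptcra, the pre-T cell receptor chain, at 0.64 and the factor Bcl11b at 0.31. Around the start the median was 0.19, against 0.32 over all genes. The difference between the B and T lists was not tested.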
